A study of Homo sapiens with 6 samples.

Results

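Receptor tyrosine kinases are membrane proteins that read growth factors and neighbouring cells from outside. A ligand brings receptor chains together, the chains phosphorylate each other on tyrosine, and adaptors that dock there pass the signal to the RAS-ERK and PI3-kinase routes. In the pancreas they are known from duct and islet development and from ductal adenocarcinoma, where MET and AXL among others are studied as drug targets. The genes described here are those of this superfamily other than the EGFR family. They were chosen by symbol from a list of 43 names in 13 families. The rule uses no measured value, but the list was drawn up with earlier results of these data known. Of these, 40 have a row among the 19830 genes of the comparison, and NTRK3, ROS1 and TEK have none.

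The RNA came from PANC-1, an established human line from a pancreatic ductal adenocarcinoma, which carried no engineered allele in either group. A first group of 2 libraries came from cells given 25 nM of SOX9 siRNA, and the other group of 2 libraries from cells given 25 nM of a control siRNA. Both were delivered with a Lipofectamine reagent and read 48 hours later as total RNA, on cells pooled within each condition. The pooled cells come from a single line, and no label says whether libraries of a group were separate cultures, so p-values reflect how far these particular libraries differ, and that spread may be technical.

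Values for single libraries were not used here. The authors' deposited table gives each gene a mean normalized count over the libraries, a log2 fold change with its standard error, and a DESeq2 Wald p with its adjusted value. An adjusted p was given for 14063 genes, called tested here, and the threshold for calling a gene was an adjusted p under 0.05. By the measure of the authors' deposited table, SOX9 itself stood at 55.9% of control (95% interval 39.2% to 79.8%) with a DESeq2 adjusted p of 0.0643. The file does not name the numerator, and the negative sign at SOX9 was used to read every fold change as SOX9 siRNA relative to control siRNA. SOX9 is therefore no check of the labels. Of the epithelial markers, all 6 were tested, with KRT8 at a mean normalized count of 203350 by the authors' deposited table, and 5 had positive log2 fold changes, of which none was called. KRT8 was at 1.47-fold with a DESeq2 adjusted p of 0.0786 by the authors' deposited table, while EPCAM, the only negative one, was called lower. Of other cell types' markers, 0 of 6 endothelial, 1 of 6 leukocyte, 2 of 5 fibroblast and 3 of 5 neural and glial genes were tested. Among those, the fibroblast gene COL1A1 was called higher and the glial gene MBP lower. The other tested gene of the fibroblast list, COL3A1, had a log2 fold change of -0.31 (standard error 0.51) by the authors' deposited table, and RBFOX3 of the neural list had 0.60 (standard error 0.66). The highest mean count of an endothelial marker by the authors' deposited table was 7.56, and that of a leukocyte marker was 52.2. In the fibroblast list the highest was COL1A1 at 448.8. In the neural and glial list it was MBP at 8406, above the epithelial genes CDH1 at 1426 and EPCAM at 1699.

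No receptor tyrosine kinase outside the EGFR family was called in either direction. The DESeq2 count was 0 of 30 tested members, 0 higher and 0 lower, beside 1.81% of all tested genes, of which 0.868% were called higher and 0.939% lower. A count of 0 among 30 genes does not stand apart from that background. Counted at an unadjusted p under 0.05 were 3 members, FGFR2 and AXL with negative values and RET with a positive value. That is 10.0% of the tested members, beside 11.1% of all tested genes. The values of members lay evenly about 0, with 15 positive and 15 negative log2 fold changes, or 16 and 14 after centring on the median gene, which turned TYRO3. Their median log2 fold change was -0.004, against -0.02 over all tested genes, and their median absolute log2 fold change was 0.20 against 0.19.

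**Figure D1:**
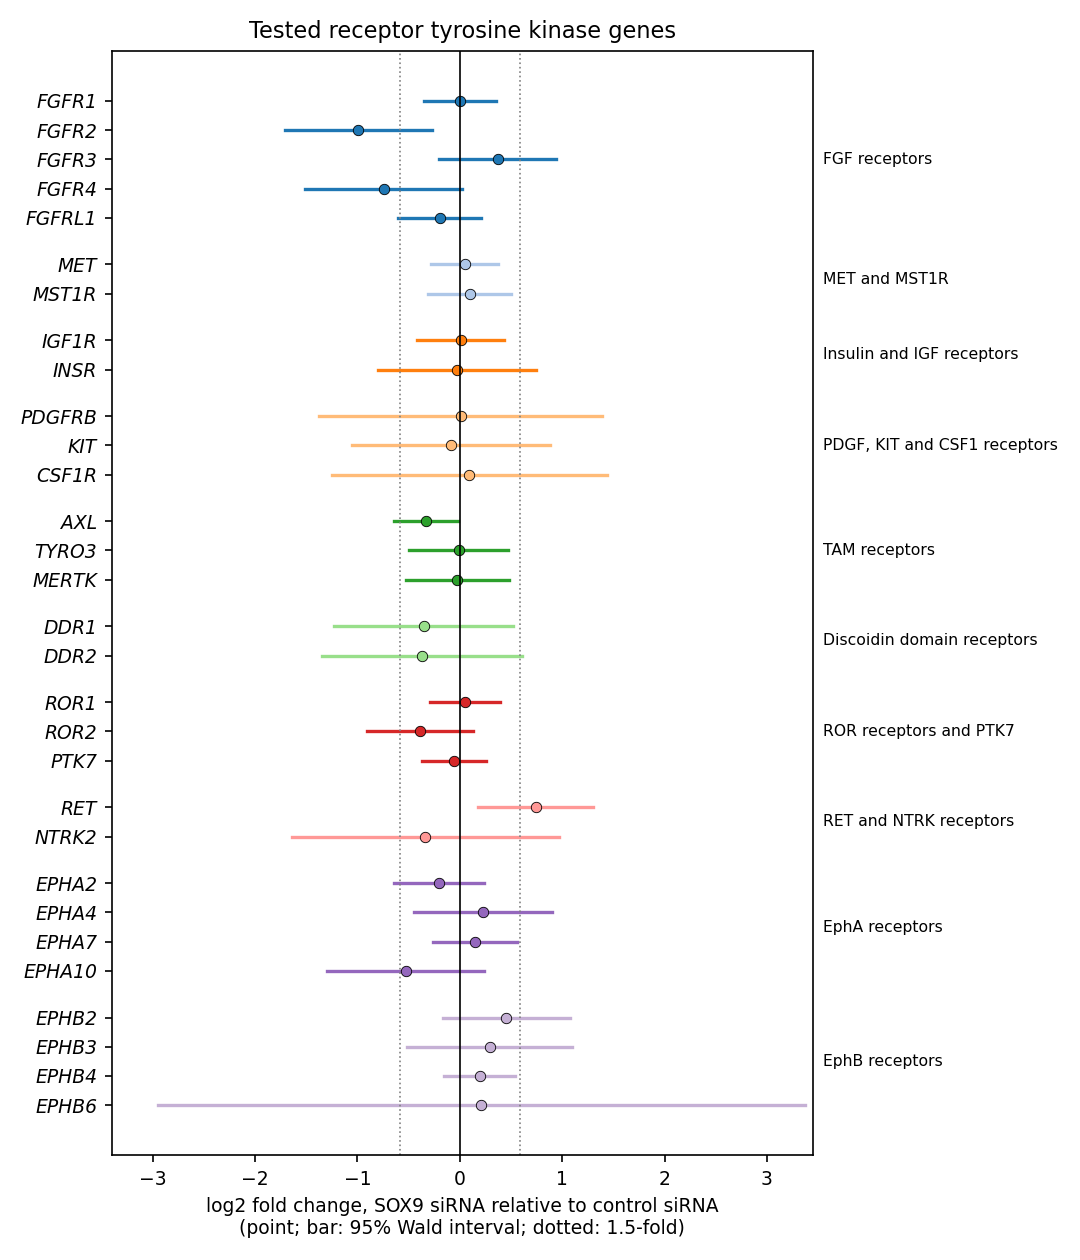
Log2 fold change of each tested receptor gene (SOX9 siRNA relative to control siRNA) by family, with 95% Wald intervals as bars and dotted lines at 1.5-fold. The bars of FGFR2, RET and AXL do not cross 0, no gene passed the adjusted threshold, and EPHB6 has the widest bar.

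How small a change could have been called differed widely between members. The smallest Wald statistic among called genes was 3.32 in size, and multiplying it by each standard error gives the fold change a gene would have needed. For the tested members this ran from 1.44-fold for PTK7 to 40.8-fold for EPHB6, with a median of 1.94-fold. The 5 members with a mean normalized count over 10000 by the authors' deposited table (PTK7, MET, AXL, EPHB4 and EPHA2) would have needed 1.44-fold to 1.68-fold. The 7 tested members with a mean count under 100 (CSF1R, PDGFRB, DDR2, NTRK2, EPHA10, EPHB3 and INSR) would have needed 2.46-fold to 5.07-fold. Mean counts are not divided by transcript length, so they are used for precision and not to rank the receptors by level.

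The intervals of 10 members stayed within 1.5-fold of no change in either direction. They were FGFR1, MET, MST1R, IGF1R, TYRO3, MERTK, ROR1, PTK7, EPHA7 and EPHB4, and 33.3% of tested members compares with 40.3% of all tested genes. Across these 10 the lowest interval bound was 69.5% of control and the highest was 1.47-fold. A further 7 had intervals within 2-fold, which made 17 in all, or 56.7% of tested members against 74.8% of all tested genes. For the other 13 a 2-fold change in at least 1 direction lay inside the interval. The shares compared here were not matched for mean count. The median mean count was 720 for tested members and 1279 for all tested genes.

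**Figure D2:**
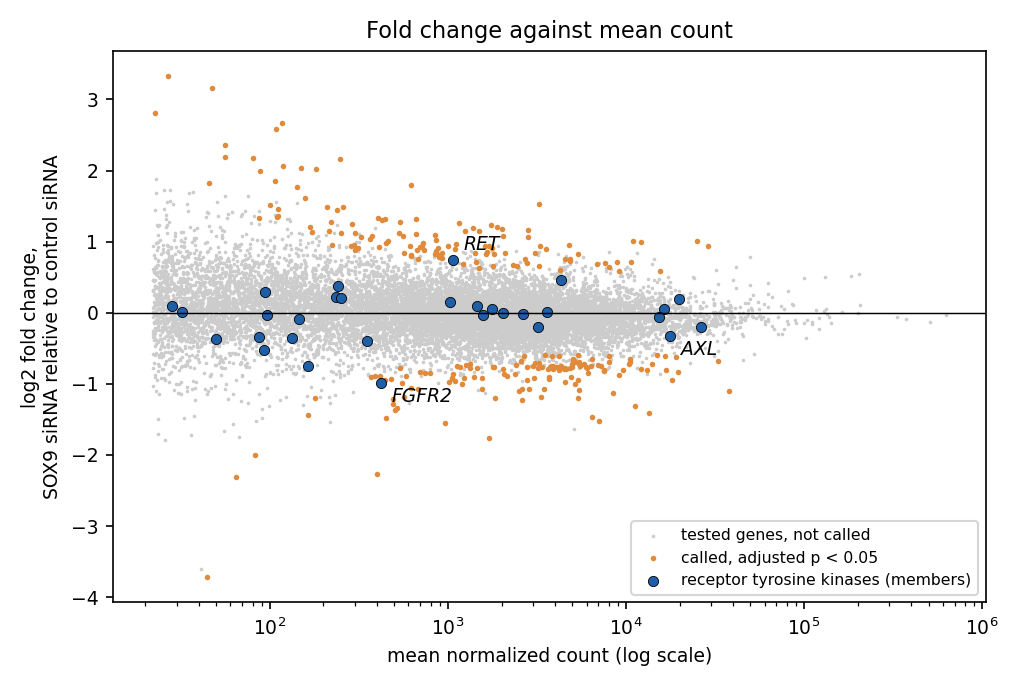
Log2 fold change against mean normalized count (log axis) for all 14063 tested genes in grey, called genes in orange and the 30 tested receptor genes in blue. The named points FGFR2, RET and AXL are the receptor genes with an unadjusted DESeq2 p under 0.05. They rank 572, 700 and 1383 by p among tested genes, and no receptor gene is called.

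The regions before the starts of those 3 genes are shown because SOX9 is a transcription factor and they are the members with the smallest p. The sequences are RefSeq promoter windows of build GRCh38.p14, which held 37 of the 40 members with a row, and each run is the 250 bases before the most upstream listed start, read 5′ to 3′ on the gene's strand. Capitals mark CG dinucleotides, the pairs that crowd in CpG islands.

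FGFR2, chr10:121598445-121598694, minus strand: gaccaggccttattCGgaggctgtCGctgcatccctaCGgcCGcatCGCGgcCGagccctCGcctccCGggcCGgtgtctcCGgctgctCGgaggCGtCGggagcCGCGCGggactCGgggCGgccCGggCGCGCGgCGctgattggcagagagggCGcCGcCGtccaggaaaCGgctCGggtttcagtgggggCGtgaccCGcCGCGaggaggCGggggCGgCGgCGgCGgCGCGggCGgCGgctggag

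RET, chr10:43076819-43077068, plus strand: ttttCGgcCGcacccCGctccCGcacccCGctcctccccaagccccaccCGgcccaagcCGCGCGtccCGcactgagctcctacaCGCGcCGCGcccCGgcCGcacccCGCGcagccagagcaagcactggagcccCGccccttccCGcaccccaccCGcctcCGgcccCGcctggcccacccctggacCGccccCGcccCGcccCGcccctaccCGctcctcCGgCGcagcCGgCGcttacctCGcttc

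AXL, chr19:41218973-41219222, plus strand: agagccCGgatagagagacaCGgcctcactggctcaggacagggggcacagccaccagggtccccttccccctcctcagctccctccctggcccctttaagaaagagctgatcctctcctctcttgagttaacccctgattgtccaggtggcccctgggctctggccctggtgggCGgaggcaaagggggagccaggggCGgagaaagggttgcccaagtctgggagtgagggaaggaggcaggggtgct

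FGFR2 holds 42 CG pairs in this window and RET 33, while AXL holds 4, and the median over all 35116 RefSeq windows is 11. SOX proteins bind short A- and T-rich sites, so the letters ACAAAG were searched on both strands. The letters ACAATG were searched likewise, and so were AACAAT, which can overlap with them. None of the windows printed above holds any of them. FGFR2 has 5 listed starts, while AXL and RET have 2 each, so more windows were searched for FGFR2. Windows at other starts of FGFR2 hold 2 matches and those of AXL hold 1. Each is shown with 10 bases either side and the match in capitals, and the RET windows hold none.

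FGFR2, chr10:121596669-121596694, minus strand, 39 bases before its start: accgggagggCTTTGTggtcctgggt

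FGFR2, chr10:121531397-121531422, minus strand, 98 bases before its start: tttgattgctACAAAGcagcttttca

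AXL, chr19:41226567-41226592, plus strand, 178 bases before its start: gaaaaggaaaCTTTGTgtctgcggat

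Over the whole list, 14 of 69 member windows (20.3%) hold at least 1 of the letters searched, against 25.6% of all windows. Counted by gene, the shares are 27.5% of members and 29.7% of all genes with a window. A match is a description of the letters and does not show binding, and the SOX9 ChIP-seq samples of the series were not analysed here.

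The FGF receptors held the most negative value of any tested member. FGFR2, the receptor through which FGF10 sustains SOX9-positive progenitors in the embryonic pancreas, stood at 50.2% of control by the authors' deposited table (95% interval 30.6% to 82.6%). With a mean normalized count of 419, it had an unadjusted p of 0.00664 and a DESeq2 adjusted p of 0.163 by the authors' deposited table, so it was not called. When tested genes are ordered by p, FGFR2 stands at rank 572. Its standard error of 0.37 was above that of most genes of like abundance, since 17 of the 200 tested genes nearest in mean count had a larger value. FGFR4, which with the co-receptor KLB answers the gut hormone FGF19 in liver, had a log2 fold change of -0.74 by the authors' deposited table, and its interval reached from 35.1% to 101.6% of control. FGFR1, the family member that mediates much of the FGF response of mesenchymal cells, had a value of 0.003 on the log2 fold change scale and an interval from 78.5% to 128% of control by the authors' deposited table. FGFR3 had a log2 fold change of 0.37 (standard error 0.29) by the authors' deposited table. FGFRL1, which binds FGFs but lacks the kinase domain, had the highest mean count of the family at 3225, a log2 fold change of -0.20 and a DESeq2 adjusted p of 0.842 by the authors' deposited table. Across the family 3 values were negative and 2 positive, and their median was -0.20. The FGFR1 and FGFR2 estimates differ by about 1 log2 unit, but a test of that difference needs values per library and was not made.

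On the ligand side of the FGF family, 3 of 18 genes were tested and 0 were called, beside 1.81% of all tested genes. FGF2, a broadly acting FGF without a secretion signal, stood at 67.2% of control by the authors' deposited table (95% interval 49.1% to 92.0%), with a DESeq2 adjusted p of 0.235. FRS2, the adaptor that couples FGF receptors to GRB2, stood at 63.7% (44.5% to 91.1%), with a DESeq2 adjusted p of 0.237 by the authors' deposited table. FGF2 and FRS2 are named after their values were seen. KLB and KL, the co-receptors for hormone-like FGFs, had log2 fold changes of -0.26 and 0.24 by the authors' deposited table, each with a standard error over 0.4.

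RET had the largest positive value of any tested member. This receptor, which with GFRA co-receptors binds GDNF-family ligands and guides nerves and kidney buds, was at 1.67-fold by the authors' deposited table (95% interval 1.13 to 2.47). With a mean normalized count of 1063, it had an unadjusted p of 0.00981 and a DESeq2 adjusted p of 0.197 by the authors' deposited table. Its standard error of 0.29 stood against a median of 0.20 for the 200 tested genes nearest in count, of which 14 had a larger one. None of GFRA1, GFRA2, GFRA3 and GFRA4 was tested, and the highest mean count among them by the authors' deposited table was 3.80. Of 8 neurotrophins and GDNF-family ligands, 1 was tested: BDNF, with a log2 fold change of -0.46 (standard error 0.38) by the authors' deposited table. NTRK2, the receptor of BDNF, had a log2 fold change of -0.34 with a standard error of 0.67 by the authors' deposited table, so its interval ran from 32.1% to 195% of control.

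Between them, the TAM receptors AXL, TYRO3 and MERTK bind GAS6 and PROS1, which bridge them to phosphatidylserine on dying cells. AXL stood at 79.7% of control by the authors' deposited table (95% interval 64.1% to 98.9%), on a mean normalized count of 17755. Its unadjusted p was 0.0398 and its DESeq2 adjusted p 0.405 by the authors' deposited table. Its standard error of 0.16 was the smallest but 1 among tested members, after PTK7. TYRO3 and MERTK had log2 fold changes of -0.01 and -0.02 by the authors' deposited table, and both intervals lay within 1.5-fold. GAS6, the ligand with the highest affinity for AXL, was at 1.41-fold by the authors' deposited table (1.09 to 1.81). The authors' deposited table gave it an unadjusted p of 0.00850 and a DESeq2 adjusted p of 0.186. PROS1, the anticoagulant protein S, had a log2 fold change of 0.31 (standard error 0.23) by the authors' deposited table. The value of AXL was thus negative and those of GAS6 and PROS1 positive, and none of the 3 passed the adjusted threshold.

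MET and MST1R are the receptors of HGF and of macrophage-stimulating protein, which drive the scattering of epithelial cells. MET was at 1.04-fold by the authors' deposited table (95% interval 0.83 to 1.30) at a mean normalized count of 16365, with a DESeq2 adjusted p of 0.974. MST1R had a log2 fold change of 0.10 (standard error 0.21) by the authors' deposited table. Both intervals excluded a 1.5-fold change either way, as did those of ROR1 and PTK7. HGF had a log2 fold change of 0.40 with a standard error of 0.69 by the authors' deposited table. MST1 had a log2 fold change of 0.12, but it may share reads with its near-identical copies MST1L and MST1P2, which was not measured.

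IGF1R, the receptor of the insulin-like growth factors, had a log2 fold change of 0.01 by the authors' deposited table, with an interval from 74.8% to 135% of control and a DESeq2 adjusted p of 0.996. INSR, the insulin receptor, had a log2 fold change of -0.03 by the authors' deposited table but a mean count of 96.4, and its interval was wider, from 57.6% to 168% of control. The docking protein IRS1, which both receptors use, had a log2 fold change of 0.02 by the authors' deposited table (standard error 0.19), and IRS2 had -0.20 (standard error 0.25). IGF1 and IGF2 had mean counts of 0.748 and 2.59 by the authors' deposited table and were not tested, and INS had no row.

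Ephrin receptors, which bind ephrins on touching cells and sort cells at boundaries, gave 8 tested members and 0 calls. Over all tested genes 1.81% were called, and 8 genes are too few to tell a count of 0 from that share. EPHA2, which is commonly high in carcinomas, had the highest mean count of all members at 26329 and stood at 87.0% of control by the authors' deposited table (95% interval 64.1% to 118%), with a DESeq2 adjusted p of 0.853. EPHB4, the receptor of ephrin-B2, was at 1.14-fold (0.90 to 1.46) at a mean count of 19791 by the authors' deposited table, with a DESeq2 adjusted p of 0.797. EPHB4 overlaps the protein-coding gene SLC12A9 in the RefSeq table, so its count is uncertain if strand was not used.

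All 4 tested EphB receptors had positive values, with a median of 0.25, and the EphA receptors had 2 positive and 2 negative values with a median of -0.02. EPHB2 had a log2 fold change of 0.46 (standard error 0.32) by the authors' deposited table. Only 2 of the 200 tested genes nearest in mean count to EPHB2 had a larger standard error. EPHB3 had a log2 fold change of 0.29 and EPHB6 of 0.21 by the authors' deposited table. EPHB6, whose kinase domain is inactive, had a standard error of 1.61 at a mean count of 249.9 by the authors' deposited table, larger than that of each of the 200 tested genes nearest in count, and its interval ran from 12.9% to 1032% of control. EPHA7 and EPHA4 had values of 0.15 and 0.22 on the log2 fold change scale by the authors' deposited table, and EPHA10, another receptor with an inactive kinase domain, had -0.53 (standard error 0.39).

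**Figure D3:**
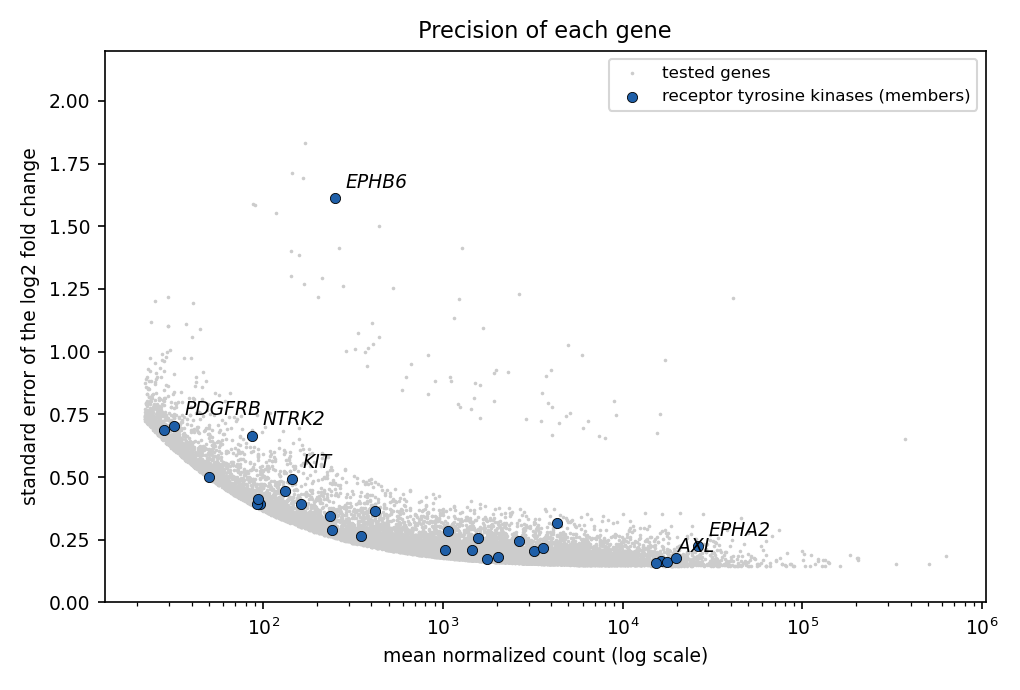
Standard error of the log2 fold change against mean normalized count (log axis) for tested genes in grey and the 30 tested receptor genes in blue. Standard errors shrink as counts rise, and EPHB6, at 1.61, lies far above the band of genes counted near 249.9.

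Of the ephrins all 8 were tested and 0 called, beside 1.81% of all tested genes, which so few genes cannot be told apart from. EFNB1, an X-linked ligand of EphB receptors, was at 1.69-fold by the authors' deposited table (95% interval 1.06 to 2.68), with a DESeq2 adjusted p of 0.336, and is named after its value was seen. Another ephrin-B, EFNB2, which EPHB4 binds, had a log2 fold change of -0.15 (standard error 0.23) by the authors' deposited table. EFNA1, a main ligand of EPHA2, had -0.29 (standard error 0.26).

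ROR1, ROR2 and PTK7 act with WNT5A and Frizzled proteins in planar polarity, and PTK7 has an inactive kinase domain. PTK7 stood at 96.2% of control by the authors' deposited table (95% interval 77.7% to 119%) at a mean count of 15396, with a DESeq2 adjusted p of 0.968. ROR1 had a log2 fold change of 0.05 (standard error 0.18) by the authors' deposited table. ROR2 had -0.39 (standard error 0.26) on the same scale by the authors' deposited table, with an interval from 53.3% to 109.1% of control. WNT5A had a log2 fold change of 0.70 with a standard error of 0.49 by the authors' deposited table.

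The discoidin domain receptors, which bind collagen, had negative values with wide intervals. DDR1 had a log2 fold change of -0.35 (standard error 0.45) and DDR2 of -0.37 (standard error 0.50) by the authors' deposited table, and the DESeq2 adjusted p of DDR1 was 0.885. The mean count of DDR1 was 132.9 by the authors' deposited table and is uncertain. DDR1 lies on chromosome 6 in the major histocompatibility complex, and of its 20 nearest protein-coding genes 5 were tested. Those 5 had mean counts from 27.7 to 1791 by the authors' deposited table, with DHX16 at 204.8, IER3 at 639.9 and the tubulin gene TUBB highest. FLOT1 and GTF2H4, neighbours that most cell types express, had mean counts of 3.19 and 5.79 by the authors' deposited table. The neighbours named were chosen after their values were seen, and the cause of the low counts among them was not tested.

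Most receptors that mark blood vessels, blood cells and stroma had mean counts too low for a test or near that limit, with KIT as an exception. KDR, FLT1 and FLT4, the VEGF receptors, had mean counts of 0.755, 1.74 and 9.56 by the authors' deposited table and were not tested, nor was TIE1 at 1.67. PDGFRA had a mean count of 2.25 by the authors' deposited table and was not tested. PDGFRB and CSF1R were tested at mean counts of 32.0 and 28.2, with log2 fold changes of 0.01 and 0.09 and standard errors of 0.71 and 0.69 by the authors' deposited table. KIT, the stem cell factor receptor and the family's highest by mean count at 145.4, had a log2 fold change of -0.09 (standard error 0.49) and a DESeq2 adjusted p of 0.984 by the authors' deposited table. The remaining members without a test were ALK, LTK, EPHA1, EPHA3 and EPHB1, at mean counts of 13.3, 7.47, 10.2, 2.90 and 1.92 by the authors' deposited table.

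Several ligands of these receptors could be tested. CSF1, the macrophage growth factor and the ligand with the highest mean count at 8090, was at 147.5% of control by the authors' deposited table (95% interval 99.6% to 218%). The authors' deposited table gave it an unadjusted p of 0.0525 and a DESeq2 adjusted p of 0.460. PGF, a VEGF-family ligand of FLT1 named after its value was seen, was at 1.57-fold by the authors' deposited table (1.10 to 2.24), with a DESeq2 adjusted p of 0.230. VEGFA and VEGFB had log2 fold changes of 0.11 and 0.01 by the authors' deposited table, and VEGFC, the ligand of lymphatic vessels, had -0.43 (standard error 0.27). PDGFA, PDGFB and PDGFC had log2 fold changes of 0.29, -0.23 and -0.28 with standard errors between 0.20 and 0.24 by the authors' deposited table.

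Around the receptors, the same comparison gave 0 called genes in each of 4 lists. Among ligands 27 of 59 were tested, 17 positive and 10 negative, with a median log2 fold change of 0.12 and 4 at an unadjusted p under 0.05 in the DESeq2 test. Among co-receptors and shedding enzymes 10 of 14 were tested, with a median of 0.004 and 3 at an unadjusted p under 0.05. Among adaptors 30 of 33 were tested, with a median of -0.01 and 2 at that p. Among attenuators, which dephosphorylate, ubiquitinate or block receptors, 17 of 19 were tested, 12 of them negative, with a median of -0.27 and 2 at that p. Over all tested genes 52.1% had negative values, the median was -0.02 and 11.1% had an unadjusted p under 0.05. All 4 counts of 0 stand beside 1.81% of all tested genes called, and every share at the unadjusted threshold rests on few genes.

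**Figure D4:**
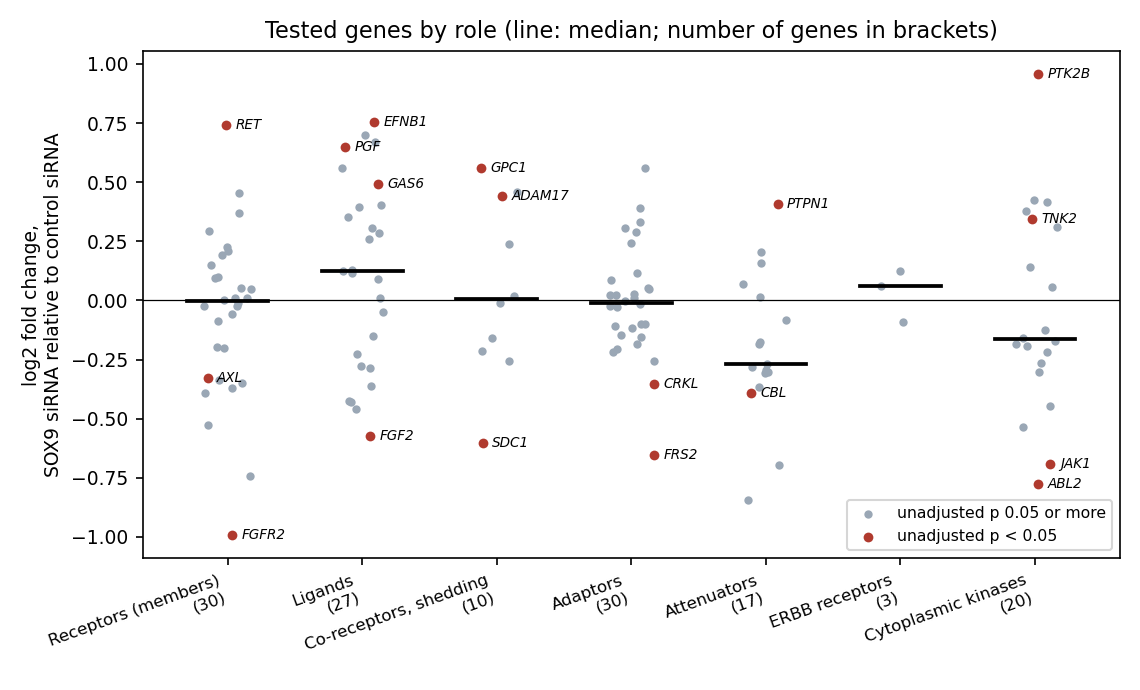
Log2 fold change of each tested gene by role in receptor signalling, with the median as a line and genes with an unadjusted p under 0.05 in red. Receptor and adaptor medians lie near 0, the attenuator median is at -0.27, and no gene shown passed the adjusted threshold.

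Heparan sulfate proteoglycans hold FGF and HGF at the cell surface, and SDC1 and GPC1 had the smallest p-values of these 4 lists. SDC1, syndecan-1, stood at 65.8% of control by the authors' deposited table (95% interval 49.6% to 87.4%). The authors' deposited table gave it an unadjusted p of 0.00385 and a DESeq2 adjusted p of 0.122. GPC1, glypican-1, was at 1.47-fold by the authors' deposited table (1.11 to 1.96). The authors' deposited table gave it an unadjusted p of 0.00741 and a DESeq2 adjusted p of 0.170. SDC4, the syndecan of focal adhesions, is a proteoglycan of the same kind and had a log2 fold change of 0.02 (standard error 0.15) by the authors' deposited table. CD44, a hyaluronan receptor that presents HGF to MET and the list's highest by mean count, had -0.21 (standard error 0.14) and a DESeq2 adjusted p of 0.657 by the authors' deposited table. NRP1, a VEGF co-receptor, had a log2 fold change of -0.01 (standard error 0.17) by the authors' deposited table. ADAM17, the protease that sheds many receptors and their ligands, was at 1.36-fold by the authors' deposited table (1.06 to 1.75) with a DESeq2 adjusted p of 0.264, and is named after its value was seen.

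Of the adaptors, SHC1 had the highest mean count and was at 1.22-fold by the authors' deposited table (95% interval 0.98 to 1.52), with a DESeq2 adjusted p of 0.516. GRB2, which brings SOS to activated receptors, had a log2 fold change of 0.09 (standard error 0.15) by the authors' deposited table, and PTPN11, the phosphatase SHP2, had -0.16 (standard error 0.16). Among attenuators, ERRFI1, an inhibitor of EGFR that the list also holds, had the highest mean count and a log2 fold change of -0.31 with a DESeq2 adjusted p of 0.772 by the authors' deposited table. CBL, the ubiquitin ligase that sends activated receptors for degradation, stood at 76.3% of control (60.1% to 96.9%), and PTPN1, a phosphatase of insulin and other receptors, was at 1.32-fold (1.04 to 1.68) by the authors' deposited table. Their DESeq2 adjusted p-values were 0.336 and 0.302 by the authors' deposited table, and both are named after their values were seen.

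The EGFR family and the cytoplasmic tyrosine kinases gave 0 calls as well. Of the ERBB receptors 3 of 4 were tested and 0 called, with a median of 0.06. Of the cytoplasmic kinases 20 of 32 were tested and 0 called, with a median of -0.16 and 4 of the 20 at an unadjusted p under 0.05 in the DESeq2 test, beside 1.81% called and 11.1% at that p over all tested genes. No difference between these lists and the members was tested.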

How the data were processed

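RNA-seq of 2 SOX9 siRNA and 2 control siRNA libraries of PANC-1 cells was used. ChIP-seq of SOX9 (2 samples) is not used here. Tools named by the submitters' processing notes are DESeq2 1.18.1, featureCounts and HISAT2 2.0.5, and hg19 and mm10 are given as builds without a role. Whether reads were counted by strand, and the depth of each library, are not given in the sources used here. Per the file headers, the deposited mean count is a size-factor scaled signal, averaged over libraries. The fold change and its standard error are deposited log2 values, the Wald statistic is a deposited score, and each p-value, raw or adjusted, is as the authors deposited it. Fold changes and tests were taken as they stand from the authors' DESeq2 comparison, the branch of the design for a file without counts.

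Computed here with Python 3.11.15 and pandas 2.3.3 were 95% Wald intervals, the fold change needed for a call, list counts and medians, and comparisons with the 200 tested genes nearest in mean count. A total of 5767 genes, with mean counts of 21.9 or less, had no adjusted p. Lists held 236 entries, of which 4 were second names of genes already listed. The members and lists were chosen with earlier results of these data known. Named were all members, list genes with an unadjusted p under 0.01 and the highest by mean count of each list, and all other list genes named lie outside this rule and were chosen after their values were seen. Of 40 members with a RefSeq span, 21 overlap another annotated gene, so their counts are uncertain without strand. The adjustment and calling steps were tested on simulated data. Alternatives were other mean count minimums, thresholds, centring, an empirical null, a 1.5-fold null and adjustment over every gene.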

Additional observations from a re-analysis of the deposited data

How the results depend on the processing

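Each of the 8 alternatives left 0 receptors called, and 0 ligands, co-receptors, adaptors and attenuators. At the adjusted p thresholds of 0.01 and 0.1 this was fixed in advance, because the smallest deposited DESeq2 adjusted p among them was 0.122 (SDC1). The 1.5-fold null can only raise p-values, so it could not add a call either. The receptors' median log2 fold change stayed between -0.02 and 0.01. Outside the 1.5-fold null, FGFR2 had the smallest adjusted p of a receptor in each alternative. It ran from 0.145 at a mean count of at least 100 to 0.422 with an empirical null. When tested against a change of 1.5-fold or less, all tested receptors were tied at 1. Over all tested genes the calls went from 254 to 109 at an adjusted p under 0.01, to 96 with the empirical null and to 3 against the 1.5-fold null. At an adjusted p under 0.1, 4 further genes whose values are given passed: SOX9 (0.0643), JAK1 (0.0771), KRT8 (0.0786) and ABL2 (0.0925). Of the 77 genes whose values are given, those near 0 turned sign: TYRO3 to 0.0049 and NRP1 to 0.0044 after centring, and to 0.0056 and 0.00027 with the empirical null. Centring adds 0.02 to every value, and the empirical null adds an amount in proportion to each standard error. Outside the receptor lists, COL1A1 was not called with adjustment over every gene (0.0625), at an adjusted p under 0.01, with the empirical null or against the 1.5-fold null, and EPCAM and MBP were not called against the 1.5-fold null. Leaving out single libraries was not run, because values per library were not used here. No paired analysis was possible because the columns hold the authors' comparison and carry no replicate number. For the 10 receptors with mean counts under 21.9, which have a row and no adjusted p, no change was detectable at this depth, and low expression and low depth cannot be told apart.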

Other observations

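Receptor tyrosine kinase genes outside the list, chosen after the data were seen, numbered 12, of which 6 were tested. By DESeq2, 0 of the 6 were called and 0 had an unadjusted p under 0.05. Over all tested genes the shares were 1.81% and 11.1%, and 6 genes are too few to tell these counts from them. RYK, a Wnt receptor with an inactive kinase domain, stood at 87.0% of control by the authors' deposited table (95% interval 70.4% to 107.5%) at a mean normalized count of 7274. LMTK2 stood at 81.4% (64.5% to 102.8%) by the authors' deposited table. Among cytoplasmic kinases, JAK1, which serves interferon and interleukin receptors, stood at 61.9% of control by the authors' deposited table (45.9% to 83.6%) with a DESeq2 adjusted p of 0.0771. ABL2, a kinase that binds actin, stood at 58.4% (41.3% to 82.6%) by the authors' deposited table with a DESeq2 adjusted p of 0.0925.

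EPHB6 had a standard error that 3 of the 11888 tested genes with a mean count of at least 100 exceeded, against a median of 0.20 over those genes. Around DDR1, 10 of the 20 nearest protein-coding genes had no row under their present symbol, 5 had a row and no adjusted p, and 5 were tested.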
